A study of Homo sapiens with 15 samples.

Results

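The genes described here were those whose expression was highest from 4 to 8 h after epidermal growth factor (EGF). They were chosen by their own scores, as the 150 genes with the largest value of a rule that compared the middle of a time course with what came before and after it. The value is the mean score at 4, 6 and 8 h minus the higher of an early mean, over 0.5, 1 and 2 h, and a late mean, over 18, 24 and 48 h, with each time given equal weight. Each gene symbol of the platform was represented by its probe set with the highest mean, which gave 14675 genes. Of these, 6474 had a mean score of at least 0.5 and a name that was not excluded. Excluded names were those of several families of small RNAs, metallothioneins, zinc finger genes and mitochondrial ribosomal genes, and symbols starting with LOC. The 150 members are therefore 150 of 6474 genes that could have been chosen, and their 4 to 8 h values are given below as a description with no test.

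Gene expression was measured with Human Gene 2.0 ST microarrays in the cell line H1975, which was established from a human non-small cell lung cancer and carries a mutated EGF receptor. All cells were deprived of serum overnight and then given EGF at 50 ng/ml, so that every array came from starved and stimulated cells, and unstimulated cells were not analysed here. There were 2 arrays at 0.5 h, 1 array each at 1, 2, 4, 6, 8, 12 and 18 h, and 3 arrays each at 24 and 48 h, 15 in all. The 18 h array was used as labelled although the protocol text does not list that time, and the labels do not say that arrays of the same time came from separate cultures, so that p-values measure only the spread between these arrays, which may be technical.

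Levels are scores of Single Channel Array Normalisation (SCAN), a log-scale value that is standardised within each array, so that a score places a gene among all probe sets on the same array and no fold change is given. The medians of the 15 arrays lay between 0.0644 and 0.0789, and 0 pairs of arrays were identical. Arrays of the same time correlated at 0.997 across the 14675 genes. Of the markers of epithelial and lung cells, 9 of 12 measured genes had a mean score of at least 0.5, against 2 of 8 blood cell markers and 1 of 6 fibroblast and endothelial markers. In cultures measured in bulk, fewer cells of a kind and less RNA per cell cannot be told apart, and a change in the share of cells in mitosis is of that type.

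EGF binds its receptor on the cell surface and activates the ERK and AKT kinase cascades, which first switch on immediate-early transcription factors and later the genes of growth and division. Serum-starved cells that return to the cycle must replicate their DNA, duplicate the centrosome and build a spindle. Genes of mitosis are classically switched on late in the cycle through CCAAT boxes bound by NF-Y and cell cycle homology regions bound by the MuvB complex. Growing cells also need membrane, and the enzymes of sterol synthesis are known targets of the SREBP transcription factors, which act together with NF-Y.

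Promoters of mitosis and sterol members are shown because these groups held 7 of the 12 largest values. The genes shown were picked for their motifs after the search described next, CENPA, ESPL1 and ZWINT from the 7 of 14 mitosis promoters that hold both motifs, and do not stand for the rest, since NDC80 holds TTTGAA alone and CKAP2 neither motif, both with larger rule values than ESPL1 and ZWINT. The sequences are those of RefSeq on GRCh38.p14, each 300 bases long, 250 before and 50 after the start site, printed in the direction of transcription. Capitals mark the CCAAT box (CCAAT, or ATTGG where it lies on the other strand) and, in mitosis genes, the core of the cell cycle homology region (TTTGAA, or TTCAAA on the other strand). CENPA (chr2:26785806-26786105, plus strand) encodes the histone H3 variant of centromeres, ESPL1 (chr12:53268049-53268348, plus strand) is separase, the protease that releases sister chromatids, and ZWINT (chr10:56361210-56361509, minus strand) is a kinetochore protein. EBP (chrX:48521558-48521857, plus strand) is a sterol isomerase, and FDPS (chr1:155308616-155308915, plus strand) makes farnesyl diphosphate.
CENPA: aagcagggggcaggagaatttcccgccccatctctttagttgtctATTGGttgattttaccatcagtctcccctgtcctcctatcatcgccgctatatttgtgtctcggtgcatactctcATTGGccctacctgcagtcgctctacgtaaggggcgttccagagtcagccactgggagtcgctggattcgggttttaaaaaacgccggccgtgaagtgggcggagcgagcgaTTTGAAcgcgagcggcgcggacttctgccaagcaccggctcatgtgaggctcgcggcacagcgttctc
ESPL1: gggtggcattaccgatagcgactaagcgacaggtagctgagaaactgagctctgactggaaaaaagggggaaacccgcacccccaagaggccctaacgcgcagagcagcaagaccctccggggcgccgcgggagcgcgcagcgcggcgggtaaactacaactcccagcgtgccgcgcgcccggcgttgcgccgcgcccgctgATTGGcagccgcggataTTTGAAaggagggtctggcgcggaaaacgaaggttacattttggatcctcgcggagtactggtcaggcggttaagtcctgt
ZWINT: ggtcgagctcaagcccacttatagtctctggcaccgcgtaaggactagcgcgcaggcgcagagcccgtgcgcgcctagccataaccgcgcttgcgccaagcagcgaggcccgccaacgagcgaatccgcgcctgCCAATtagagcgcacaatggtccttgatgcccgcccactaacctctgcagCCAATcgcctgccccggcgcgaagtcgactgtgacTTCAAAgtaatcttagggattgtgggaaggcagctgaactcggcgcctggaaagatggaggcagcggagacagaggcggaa
EBP: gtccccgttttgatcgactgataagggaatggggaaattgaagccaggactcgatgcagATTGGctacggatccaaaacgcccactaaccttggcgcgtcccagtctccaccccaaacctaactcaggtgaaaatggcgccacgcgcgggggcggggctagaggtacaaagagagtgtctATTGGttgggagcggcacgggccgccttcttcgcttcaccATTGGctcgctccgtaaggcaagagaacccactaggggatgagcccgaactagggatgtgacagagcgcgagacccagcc
FDPS: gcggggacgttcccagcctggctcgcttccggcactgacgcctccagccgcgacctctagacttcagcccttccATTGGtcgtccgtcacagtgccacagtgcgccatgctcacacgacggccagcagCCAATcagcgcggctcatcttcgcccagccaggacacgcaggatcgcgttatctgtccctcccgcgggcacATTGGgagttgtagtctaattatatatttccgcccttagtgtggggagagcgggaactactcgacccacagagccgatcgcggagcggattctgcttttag

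RefSeq promoters were matched by gene identifier for 124 of the 150 members, and 7 motifs were searched on both strands. A CCAAT box stood in 60 of these 124 promoters (48.4%), against 37.5% of the 5392 promoters of genes that passed the filters and 35.7% of all 27305 promoters of the same length. Of the 14 mitosis members with a promoter, 9 held CCAAT (64.3%) and 8 held TTTGAA (57.1%). TTTGAA stood in 16.1% of all members' promoters, in 10.3% of those of genes that passed the filters and in 15.4% of all promoters. In CENPA, ESPL1 and ZWINT the TTTGAA match lay 18, 31 and 31 bases before the start site, counted to its most upstream base, and the CCAAT matches lay upstream of it.

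All 3 sterol members with a promoter (EBP, FDPS and HSD17B7) held CCAAT, and EBP and FDPS held it 3 times each. A sterol response element spelled TCACNCCAC was found in 0 of these 3 promoters and in 0.806% of the members' promoters, against 1.04% of those of genes that passed the filters and 1.15% of all promoters. The E2F site TTTCCCGC stood in 6.45% of members' promoters, 3.1% of those that passed and 1.66% of all. The GC box GGGCGG stood in 68.5%, 72.8% and 44.6% in the same order, the E-box CACGTG in 4.03%, 10.8% and 7.43%, and the AP-1 site TGANTCA in 3.23%, 4.23% and 7.76%. A match is a stretch of letters in this window and shows neither binding nor its absence.

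The middle window stood only a little above the sides. Rule values of the members ran between 0.0806 and 0.18 SCAN units with a median of 0.0933, whereas the median over the 6474 genes was -0.0178 and 2381 of them had a positive value. The median standard deviation (SD) between arrays of the same time, pooled over 0.5, 24 and 48 h, was 0.0396 among the members. A value over 2 such SDs was found in 107 of 150 members and in 349 of 6474 genes, members included. The members were chosen by this same value, so nothing is read from that excess. As many as 70 genes lay below both sides at 4 to 8 h by at least as much as the last member lay above them. On every 4, 6 and 8 h array 76 members scored above all 11 early and late arrays, as did 200 of 6474 genes (3.09%), a count that the rule itself favours and from which nothing is read.

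The border of the set was not a gap. The last 5 members were VRK1, MECR, TMEM123, MMAB and BMAL1 with values of 0.0811, 0.0809, 0.0808, 0.0806 and 0.0806. The first 5 genes left out were UACA, CMTM7, ATRIP, MRRF and ATF7IP2 with 0.0801, 0.08, 0.0799, 0.0799 and 0.0798. The higher side was the early one for 108 members and the late one for 42, against 3125 and 3349 of the 6474 genes. The side is part of the rule value, and nothing is read from this count. The set also moved with single arrays, since 37 members kept their place when each of the 15 arrays was left out in turn, and without the 8 h array or the 1 h array 96 and 98 members were kept. The highest time-point mean lay at 4 h in 60 members, at 6 h in 43, at 8 h in 37, at 12 h in 9 and at 2 h in 1, the clock gene BMAL1.

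**Figure D1:**
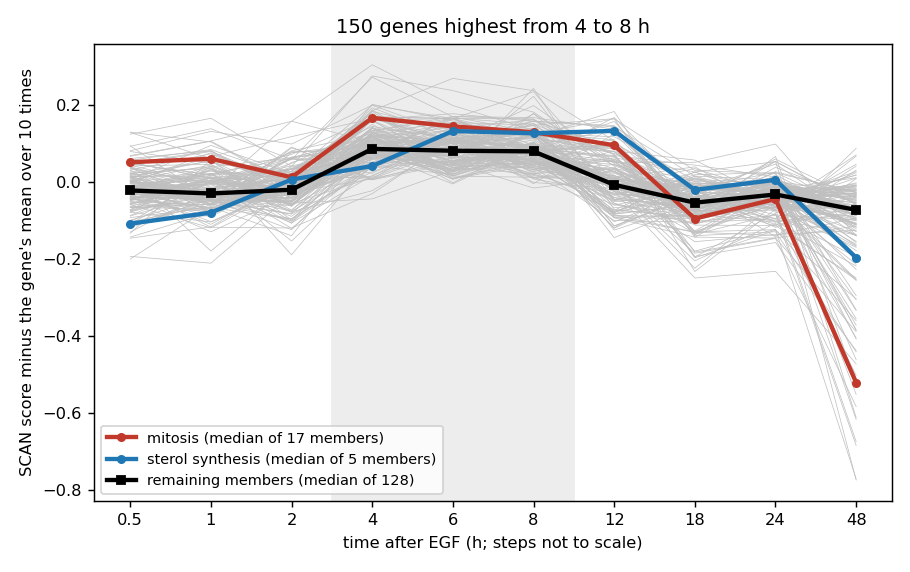
Time courses of the 150 members: the x axis gives hours after EGF (steps not to scale), the y axis the SCAN score at that time minus the mean of the gene over the 10 times. Thin grey lines are single genes, the thick lines medians over 17 mitosis members, 5 sterol synthesis members and the remaining 128, and the shaded band covers 4 to 8 h; the mitosis median is lowest at 48 h and the sterol median remains near its 8 h height at 12 h.

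The members were sorted by what their products are known to do, after their values were seen. This gave 11 groups with 130 members, of which secreted, surface and signalling proteins (19), mitosis (17), RNA processing and translation (15) and the mitochondrion (15) were the largest, and 20 members were left in no group. Of the 150 members 137 were protein coding, 9 were transcribed pseudogenes, 3 were long noncoding RNAs and 1 was the telomerase RNA.

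Differences inside the late side, the middle window and the early side carry equal weight in the rule and were tested. At 48 h compared with 24 h, 56 members were lower and 7 were higher at an adjusted p under 0.05 in limma, and 87 passed neither way. Over all 14675 genes 6.68% were lower and 6.19% were higher. Of the 6474 genes that could be chosen, 778 were lower and 711 were higher. Calls counted below for role groups and gene lists are to be set beside these shares and are not read as traits of either. Positive rule values of lists are to be set beside the 2381 of 6474 genes with a positive value. The median difference of the members was -0.0653 SCAN units, and that of all genes was -0.000583. The 48 h arrays enter the late mean, so that a gene low at 48 h had an easier way into the set, and the members' share of lower calls is not read as a property that the rule left free.

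Within the middle window 0 members differed between 8 and 4 h in limma (14 at an unadjusted p under 0.05, against 1403 of all 14675 genes), with 0.0409% of all genes higher and 0.00681% lower. Each of these times had 1 array and took its spread from the replicated times, which limits what could be detected. The lowest differences were those of RPP30 (-0.199 ± 0.0626 SE), a subunit of RNase P, and CDCA7 (-0.17 ± 0.0549), and the highest those of PCDHB8 (0.287 ± 0.0952), a protocadherin, and MAPDA (0.217 ± 0.0489), an adenosine deaminase-like enzyme. None of the 4 passed, with adjusted p of 0.276, 0.293, 0.307 and 0.124.

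Between 2 and 1 h 1 member was lower and 0 were higher in limma (24 at an unadjusted p under 0.05, against 1572 of all 14675 genes), while 0.45% of all genes were lower and 0.191% were higher. The lower member was NIPBL-DT, a noncoding transcript divergent from the cohesin loader gene NIPBL, with 0.382 at 2 h and 0.612 at 1 h, a difference of -0.231 ± 0.0493 (adjusted p = 0.0361). Each of these times is again a single array, of replicate number 3 at 2 h and 1 at 1 h, and the spread was taken from the replicated times, so that the call compares those arrays. It was lost without replicate 2 of 48 h (adjusted p = 0.0511), after quantile normalisation (0.0678), with all probe sets tested (0.0644) and with the replicate number as a block (0.123).

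Mitosis members had the lowest median difference at 48 h of the role groups. All 17 were lower at 48 h than at 24 h, against 778 of the 6474 genes that passed the filters. Their median difference was -0.459 SCAN units. In all 17 the early mean was the higher side, against 3125 of the 6474 genes. The groups were formed after the values were seen, so neither count is read as a trait of mitosis genes. The largest value of all 150 members was that of NDC80, the kinetochore protein that grips spindle microtubules. Its scores were 1.36 and 1.28 at 0.5 h, 1.35 at 1 h, 1.27 at 2 h, 1.45 at 4 h, 1.53 at 6 h, 1.5 at 8 h, 1.37 at 12 h, 1.07 at 18 h, 1.18, 1.22 and 1.14 at 24 h and 0.575, 0.596 and 0.562 at 48 h. The 3 middle arrays were the highest, the 12 h array came next, and the 48 h arrays were far below every other array. NDC80 fell by 0.604 ± 0.0301 SCAN units (SE) at 48 h relative to 24 h (adjusted p = 6.49e-11).

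CENPA, whose promoter is shown above, scored 1.39, 1.4 and 1.35 at 4, 6 and 8 h. Its early arrays lay between 1.19 and 1.26, its 12 h array at 1.31 and its 24 h mean at 1.23 ± 0.00991 (SD, n = 3). At 48 h the mean was 0.77 ± 0.019, a difference of -0.459 ± 0.0263 (adjusted p = 4.71e-10). The early and 24 h levels of CENPA overlapped, and both lay below the 4 to 12 h arrays and above the 48 h arrays.

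KIF20A, a kinesin of the cytokinetic midzone, had the largest drop at 48 h of any member. Its 48 h arrays scored 0.941, 0.973 and 0.973, against 1.74, 1.78 and 1.77 at 24 h, a difference of -0.8 ± 0.0288 (adjusted p = 3.48e-12). In the middle window it scored 1.9, 1.91 and 1.89, close to 1.88 at 12 h and to the higher of the 0.5 h arrays at 1.84. Most of the range of this gene thus lay between 24 and 48 h and little of it between the early and middle times.

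The kinase CDK1 and its activating phosphatase CDC25C, which together open mitosis, were both lower at 48 h. CDK1 scored 1.86, 1.76 and 1.72 at 4, 6 and 8 h, the highest at 4 h, while early arrays lay between 1.65 and 1.73. It averaged 0.915 ± 0.0344 at 48 h and 1.52 ± 0.0218 at 24 h, and the difference was -0.604 ± 0.028 (adjusted p = 2.67e-11). CDC25C scored 1.047, 0.981 and 0.995 at 4, 6 and 8 h and 1.061 at 12 h, with a pooled SD of 0.0207. The 4 and 12 h arrays were thus nearly level, and its peak time cannot be told apart from that of CDK1. It averaged 0.326 ± 0.0286 at 48 h and 0.872 ± 0.0135 at 24 h (limma difference -0.545 ± 0.0267, adjusted p = 5.26e-11).

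Spindle assembly and checkpoint genes were lower at 48 h throughout. NEK2, a centrosome kinase, fell by 0.665 ± 0.0275 (adjusted p = 8.08e-12), MAD2L1 of the spindle checkpoint by 0.437 ± 0.0339 (adjusted p = 3.68e-08) and AURKA, the kinase of spindle poles, by 0.361 ± 0.0316 (adjusted p = 1.97e-07). PBK, a mitotic kinase, and MAD2L1 were the mitosis members whose 12 h score was below the early mean, with differences of -0.0684 and -0.106 SCAN units. For ESPL1, separase, the 48 h arrays scored 0.496, 0.551 and 0.471 and the 24 h arrays 1.08, 1.13 and 1.13 (adjusted p = 3.15e-11). For ZWINT the 48 h mean was 0.447 ± 0.0448, against 0.759 ± 0.0204 at 24 h (adjusted p = 3.82e-07). CENPA, ESPL1 and ZWINT, whose promoters are printed above, were thus all lower at 48 h. So were KIF20A and NEK2, whose promoters lack TTTGAA, and CDC25C, whose promoter holds neither motif. A link between motifs and the fall was not tested.

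The remaining mitosis members fell by between 0.117 and 0.649 SCAN units. They were PBK, CDKN3, a phosphatase of cyclin-dependent kinases, RTKN2, CCNF, an F-box cyclin, CKAP2, a spindle protein, VRK1, a chromatin kinase, and LIN9, a subunit of the MuvB complex itself. LIN9 had the smallest fall (-0.117 ± 0.031, adjusted p = 0.0171), and its call was lost without replicate 1 of 24 h or replicate 3 of 48 h (adjusted p of 0.0965 and 0.0863).

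The list of genes of the G2 and M phases held 37 measured genes, 36 of which passed the filters and 8 of which were members. Lower scores at 48 h were found in 36 of the 37 genes, against 6.68% of all 14675 genes. The exception was CDC25B, which did not pass (0.0768 ± 0.0279, adjusted p = 0.0859). The median rule value of the list was 0.0386. A positive value was found in 28 of its genes, against 2381 of the 6474 filtered genes. Well-known mitotic genes such as PLK1 and TOP2A fell by 0.853 and 0.738 SCAN units at 48 h, within or beyond the range of the mitosis members, but had rule values of -0.000543 and -0.00439, since their middle and early means were nearly equal.

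**Figure D2:**
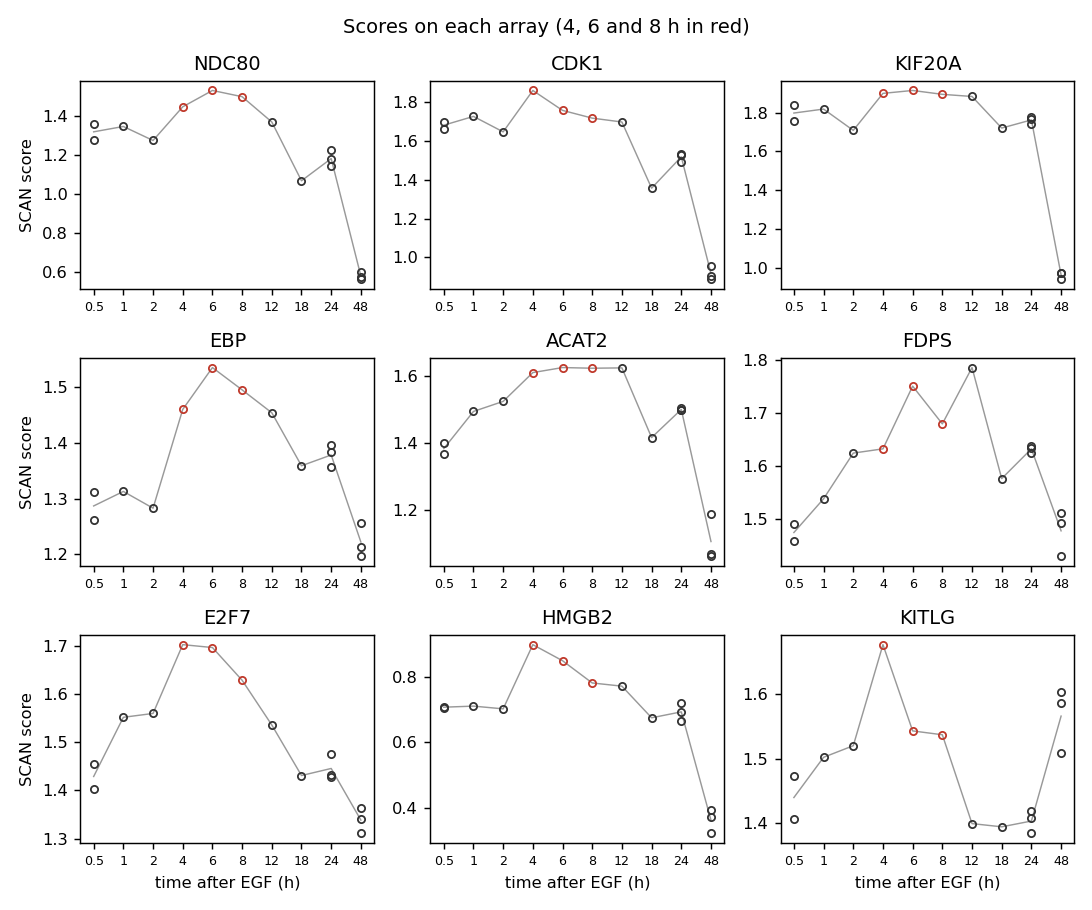
SCAN score (y axis) of 9 members on each of the 15 arrays against hours after EGF (x axis, steps not to scale); circles are arrays, red at 4, 6 and 8 h, and lines join the time-point means. NDC80, CDK1, KIF20A and HMGB2 are lowest at 48 h, FDPS is highest at 12 h, and KITLG has a lone high array at 4 h and scores above its 24 h arrays at 48 h.

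Sterol synthesis had 5 members, 4 of them among the 7 largest values. All 5 were lower at 48 h than at 24 h, against 778 of the 6474 genes that passed the filters. EBP, which shifts a double bond late in cholesterol synthesis, scored 1.26 and 1.31 at 0.5 h, 1.31 at 1 h, 1.28 at 2 h, 1.46 at 4 h, 1.53 at 6 h, 1.5 at 8 h, 1.45 at 12 h, 1.36 at 18 h, 1.38, 1.36 and 1.4 at 24 h and 1.21, 1.26 and 1.2 at 48 h. The 4 arrays from 4 to 12 h stood above all others, and the 48 h arrays were the lowest. EBP fell by 0.156 ± 0.0281 at 48 h relative to 24 h (adjusted p = 0.000833).

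ACAT2, the cytosolic thiolase that makes acetoacetyl-CoA for this pathway, scored 1.61, 1.62, 1.62 and 1.62 at 4, 6, 8 and 12 h. It averaged 1.1 ± 0.0717 at 48 h and 1.5 ± 0.00464 at 24 h, a difference of -0.39 ± 0.0324 (adjusted p = 7.94e-08), the largest of the sterol group. It scored 1.4 and 1.36 at 0.5 h, 1.49 at 1 h and 1.52 at 2 h, so that the arrays of 1 and 2 h already lay between those of 0.5 h and the middle window.

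FDPS, which joins isoprene units into farnesyl diphosphate, was highest at 12 h with a score of 1.78, against 1.63, 1.75 and 1.68 at 4, 6 and 8 h. Its 48 h arrays scored 1.51, 1.43 and 1.49 and its 24 h arrays 1.62, 1.63 and 1.64, which do not overlap (difference -0.154 ± 0.0282, adjusted p = 0.00094). A second probe set of FDPS had a rule value of 0.0561, below the 0.125 of the probe set used, so that the size of the hump depends on the probe set.

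HSD17B7, a ketosteroid reductase of cholesterol synthesis, and its pseudogene HSD17B7P2 had rule values of 0.152 and 0.161. Their differences at 48 h were -0.203 ± 0.0367 and -0.186 ± 0.0299 (adjusted p of 0.000882 and 0.000279), and both stood above all early and late arrays at 12 h. Their sequences are nearly alike, so that probes may read both, and the pair cannot be taken as independent observations.

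The 12 h score entered the rule only through the mean score of a gene, but the early and late arrays it is set against were used by the rule, which favours genes low on those sides, so that the counts that follow are partly fixed by the choice of members. The 12 h array scored above all 11 early and late arrays for all 5 sterol members and for 9 of 17 mitosis members, and for 41 of all 150 members, against 7.71% of the 6474 genes. Above the higher of the early and late means it scored for 91 of 150 members, against 25.9% of the 6474 genes. The median excess at 12 h was 0.185 SCAN units for the sterol members, 0.0563 for the mitosis members and 0.0197 for all members. The 12 h array is a single one and carries another replicate number than the middle arrays. These counts are therefore descriptions, and nothing is read from their excess over other genes.

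The list of cholesterol synthesis and uptake held 26 measured genes, 4 of them members (EBP, ACAT2, HSD17B7 and FDPS). Its median rule value was 0.015 with 14 positive values, against 2381 of the 6474 filtered genes. At 48 h 18 of its genes were lower than at 24 h and 1 was higher, against 6.68% and 6.19% of all 14675 genes. The higher one was SCD, a fatty acid desaturase (0.128 ± 0.0268, adjusted p = 0.00319). At 12 h 19 of the 26 exceeded the higher side, against 25.9% of the 6474 genes. Genes such as MSMO1 and MVD also scored high at 12 h (2.93 and 1.54), but their late means of 2.81 and 1.45 were above their middle means of 2.71 and 1.41, which kept them out of the set.

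**Figure D3:**
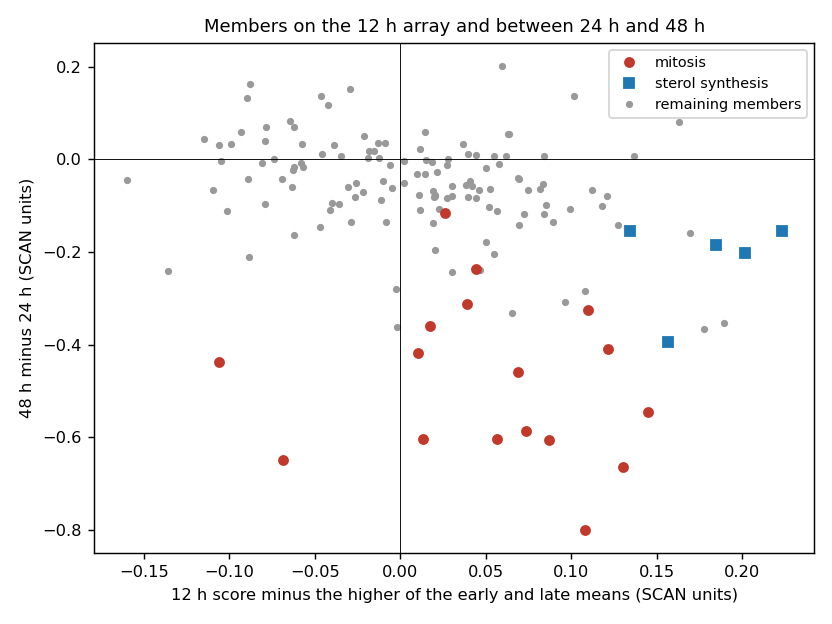
Each point is a member, with the 12 h score minus the higher of its early and late means on the x axis and the 48 h minus 24 h difference on the y axis, both in SCAN units. Mitosis members (red circles) reach down to -0.8 on the y axis, and the 5 sterol members (blue squares) lie at the right between 0.135 and 0.223. Other members share that range, among them CEP85 (0.1895) and C5orf34 (0.1775) in grey and the mitosis member CDC25C (0.1451). Grey points lie on both sides of 0 on both axes and reach down to -0.366 (C5orf34) on the y axis.

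Genes of replication, repair and chromatin numbered 12, of which 8 were lower at 48 h. Of the 6474 genes that passed the filters 778 were lower. E2F7, an atypical E2F that represses the genes of S phase, had the third largest value of all. It scored 1.4 and 1.45 at 0.5 h, 1.55 at 1 h, 1.56 at 2 h, 1.7 at 4 h, 1.7 at 6 h, 1.63 at 8 h, 1.54 at 12 h, 1.43 at 18 h, 1.48, 1.43 and 1.43 at 24 h and 1.36, 1.34 and 1.31 at 48 h. The middle arrays were the highest, and the 12 h array was near the level of 1 and 2 h. The difference at 48 h was -0.107 ± 0.028 (adjusted p = 0.0156). Without replicate 1 of 24 h or replicate 3 of 48 h it kept its sign and no longer passed (adjusted p of 0.0779 and 0.0742).

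HMGB2, a DNA-bending chromatin protein abundant in dividing cells, had middle arrays of 0.899, 0.85 and 0.782 and early arrays between 0.703 and 0.711. It averaged 0.361 ± 0.0365 at 48 h and 0.693 ± 0.028 at 24 h, a difference of -0.332 ± 0.0282 (adjusted p = 1.26e-07). GINS4, a subunit of the replicative helicase, scored 0.263, 0.251 and 0.251 at 48 h and 0.541, 0.533 and 0.532 at 24 h, a difference of -0.281 ± 0.0253 (adjusted p = 2.95e-07). A second probe set of GINS4 had a mean score of -0.005 and a rule value of 0.0073.

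CDCA7, a partner of the chromatin remodeller HELLS, averaged 0.856 ± 0.0646 at 48 h and 1.1 ± 0.0202 at 24 h, and its 12 h score differed from its early mean by -0.136. TET1, which oxidises methylated cytosine, PSMC3IP, a recombination factor, RECQL, a helicase, and PCGF5, a Polycomb subunit, were also lower at 48 h, with differences of -0.164, -0.178, -0.136 and -0.0867 SCAN units. PCGF5 was near the threshold (adjusted p = 0.0402) and lost its call without replicate 1 or 2 of 24 h or any 48 h array (0.0801 to 0.152), after quantile normalisation (0.0614), with all probe sets (0.0795) and with the replicate block (0.051). SLF1, EMSY, BRD8 and HPF1 did not pass, although SLF1, which brings the SMC complex to damaged DNA, had middle scores of 1.62, 1.58 and 1.51 and late arrays between 1.24 and 1.34.

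Only 1 of 21 measured genes of the replication list was a member, GINS4, while 20 of the 21 were lower at 48 h, and 15 had positive rule values with a median of 0.0204. Of 17 genes of the G1 to S list E2F7 was the member, with 11 lower at 48 h, and the DNA repair list had 18 measured genes, 0 members and 12 lower. The nucleotide synthesis list had 15 measured genes, 0 members and 7 lower. Over all 14675 genes 6.68% were lower, and 2381 of the 6474 filtered genes had a positive rule value.

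Centriole and cilium genes contributed 10 members, 4 of which were lower at 48 h, against 778 of the 6474 genes that passed the filters. CPAP, which sets the length of centrioles, averaged 0.666 ± 0.0463 at 48 h and 0.949 ± 0.0291 at 24 h (difference -0.283 ± 0.0294, adjusted p = 1.7e-06), and the 12 h array at 1.08 was level with 1.09, 1.08 and 1.02 at 4, 6 and 8 h. CEP85, a centrosome protein that counters NEK2, was highest at 12 h with 1.46 and fell at 48 h by 0.354 ± 0.0379 (adjusted p = 2.6e-06). POC1A, a centriole protein, scored 0.336, 0.36 and 0.32 at 48 h, against 0.74, 0.663 and 0.7 at 24 h (adjusted p = 5.22e-08). KIAA0586, needed for ciliogenesis, fell by 0.197 ± 0.0277 (adjusted p = 6.83e-05).

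The other 6 centriole and cilium members, CCDC66, CEP19, ANKRD26, SPICE1, CEP120 and POC5, did not pass at 48 h, with differences between -0.0669 and 0.00921. In 9 of the 10 centriole and cilium members the 12 h score was above the higher of the early and late means, against 25.9% of the 6474 genes. In 4 it was above every early and late array, against 7.71%. These counts are partly fixed by the rule, and nothing is read from them. POC5, which assembles the distal centriole, scored 1.35 at 12 h and at 8 h, and at most 1.28 on the early and late arrays.

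**Figure D4:**
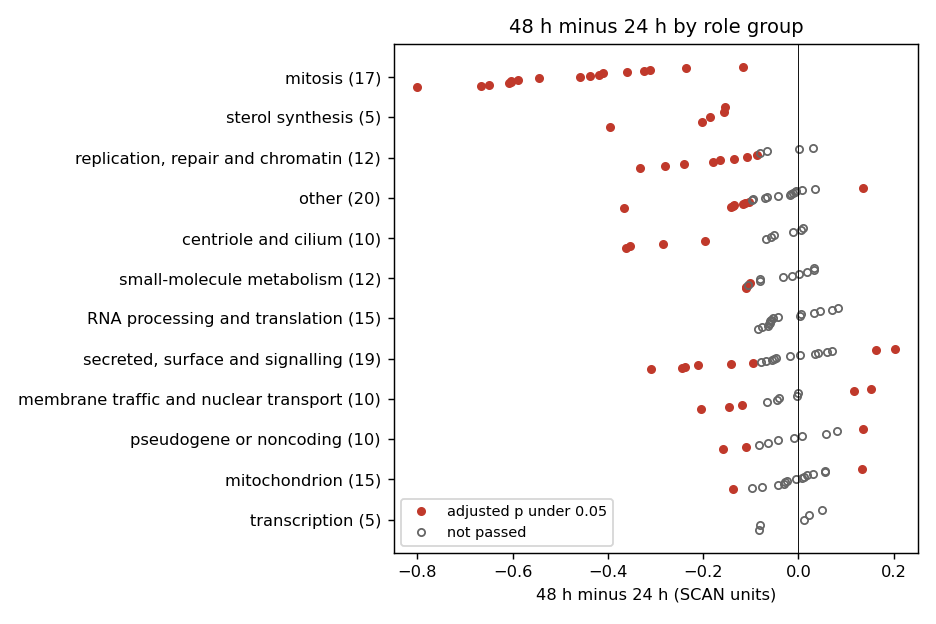
Difference between 48 h and 24 h in SCAN units (x axis) for each member, one row per role group (y axis, with the number of members); filled red points passed an adjusted p of 0.05 in limma and open points did not. All 17 mitosis and all 5 sterol members lie left of 0 and passed, whereas 0 of 15 members of RNA processing and translation and 0 of 5 of transcription passed. Of the 6474 genes that passed the filters 778 were lower, 711 were higher and 4985 were called neither way.

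Of the 15 mitochondrial members 1 was lower and 1 was higher at 48 h, and the median difference was -0.00572. Among the 6474 genes that passed the filters 778 were lower and 711 were higher. TIMM8B, a small chaperone of the intermembrane space, scored 1.18, 1.11 and 1.14 at 4, 6 and 8 h and only 0.923 at 12 h. It averaged 1.07 ± 0.0181 at 48 h and 0.94 ± 0.0327 at 24 h, a difference of 0.133 ± 0.0303 (adjusted p = 0.00596). Its neighbouring gene DLAT, a subunit of pyruvate dehydrogenase, had middle scores of 1.72, 1.76 and 1.77 and showed no called change at 48 h (-0.0239 ± 0.0328, adjusted p = 0.736).

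TOMM34, a cytosolic cochaperone of protein import, had the largest value of this group, 0.144. Its middle arrays at 2.17, 2.14 and 2.15 stood above all early and late arrays, and it averaged 1.85 ± 0.0219 at 48 h and 1.99 ± 0.0198 at 24 h (difference -0.136 ± 0.0268, adjusted p = 0.00185). TOMM40, the import pore, had 1.7, 1.73 and 1.75 in the middle window against 1.64, 1.69, 1.56 and 1.69 at the early times, and a second probe set with a rule value of 0.04 in place of 0.0848. Of the cytochrome oxidase subunits COX8A and COX5B, the middle arrays of COX8A at 2.42, 2.51 and 2.41 overlapped its 2 h array at 2.43, and those of COX5B at 1.42, 1.3 and 1.3 overlapped a 48 h array at 1.33. The list of mitochondrial import and carriers held 17 measured genes and TOMM40 as its only member, with 9 positive rule values.

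RNA processing and translation had 15 members, and 0 of them passed between 48 and 24 h. Of the 6474 filtered genes 4985 were called neither way. RPS15, a protein of the small ribosomal subunit, scored 2.89, 2.83 and 2.85 in the middle window and at most 2.8 on the early and late arrays. EIF6, which keeps ribosomal subunits apart, scored 1.88, 1.75 and 1.83 in that window and at most 1.74 elsewhere, and was at 1.65 at 12 h. At 12 h RPS15 scored 2.7, so that both were below their middle arrays there. The 12 h array carries another replicate number than the middle arrays, so that time and replicate number cannot be told apart. TERC, the RNA template of telomerase, had 2.08, 2.12 and 2.05 at 4, 6 and 8 h, overlapping its 48 h arrays of 1.98, 2.05 and 2.04.

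PRMT9, an arginine methyltransferase of splicing factors, and DCP2, the decapping enzyme, had the largest values of the RNA group (0.122 and 0.114), with middle means of 1.22 and 1.17. Their SDs between arrays of a time were 0.0593 and 0.0628, and their middle arrays (1.17, 1.2 and 1.28 for PRMT9, 1.12, 1.21 and 1.18 for DCP2) reached down to a 24 h array of PRMT9 at 1.17 and a 0.5 h array of DCP2 at 1.14. AATF, a nucleolar protein, showed the deepest 12 h score of all members relative to its higher side, -0.16. HARS1, the histidyl-tRNA synthetase, was the member among 23 measured genes of the list of tRNA synthetases and translation factors, of which 8 had positive rule values.

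Small-molecule metabolism gave 12 members, of which 3 were lower at 48 h, against 778 of the 6474 genes that passed the filters. MAPDA fell by 0.109, HYKK, hydroxylysine kinase, by 0.11 and PANK1, pantothenate kinase, by 0.102 (adjusted p of 0.0145, 0.0282 and 0.0234). These calls were lost for MAPDA without replicate 2 of 24 h or 1 of 48 h (0.0613 and 0.0768), for HYKK without replicate 2 or 3 of 24 h or of 48 h (0.0615 to 0.144) or with all probe sets (0.0572), and for PANK1 without replicate 1 or 3 of either time (0.058 to 0.0893). APRT, which salvages adenine, scored 1.69, 1.56 and 1.58 at 4, 6 and 8 h and at most 1.49 on the early and late arrays. Its neighbouring gene TRAPPC2L of a vesicle tethering complex, was also a member (1.98, 1.95 and 2 in the middle window). CDA, cytidine deaminase, scored 2.12, 2.03 and 2.12, but 2.07 at 2 h, so that its middle and early arrays overlapped.

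PGAM1, the glycolytic phosphoglycerate mutase, had 1.54, 1.59 and 1.61 and its near copy PGAM4 1.4, 1.33 and 1.48. The glutathione transferase gene GSTT2B (1.74, 1.69 and 1.71) and GSTT2 (2.03, 2 and 2.05), annotated as a transcribed pseudogene, are also near copies and neighbours. Probes may not separate either pair, and the members of a pair are not independent observations. PGAM1 was the only member among 13 measured genes of the glycolysis and hypoxia list, 2 of which had positive values.

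Membrane traffic and nuclear transport had 10 members, with 3 lower and 2 higher at 48 h. Among the 6474 filtered genes 778 were lower and 711 were higher. VPS25, a subunit of the ESCRT-II sorting complex, averaged 2.12 ± 0.0458 at 48 h and 1.97 ± 0.0459 at 24 h (difference 0.151 ± 0.032, adjusted p = 0.00331), and KPNA7, an importin alpha, 1.4 ± 0.0197 and 1.28 ± 0.0438 (difference 0.117 ± 0.0299, adjusted p = 0.0132). These 2 genes thus had a second high at 48 h, which for VPS25 stayed below its 4 and 8 h arrays at 2.26 and 2.22. NEMP1, of the inner nuclear membrane, fell by 0.204 ± 0.0316 (adjusted p = 0.000188). NUP62CL fell by 0.146 ± 0.0383 (adjusted p = 0.0158), and VPS29, of the retromer, fell by 0.118 ± 0.0298 (adjusted p = 0.0125). The calls were lost for KPNA7 without replicate 1 or 3 of 24 h or 1 of 48 h (0.0523 to 0.071), for NUP62CL without replicate 2 of 24 h or 1 or 2 of 48 h (0.0627 to 0.0958) and for VPS29 without replicate 2 of 48 h (0.0752). NUP133, a scaffold of the nuclear pore, had a narrow spread (SD 0.00916), with 1.67, 1.62 and 1.6 in the middle window and at most 1.59 on the early and late arrays.

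Secreted, surface and signalling proteins were the largest group with 19 members, 6 lower and 2 higher at 48 h. Among the 6474 filtered genes 778 were lower and 711 were higher. KITLG, the ligand of the KIT receptor, scored 1.41 and 1.47 at 0.5 h, 1.5 at 1 h, 1.52 at 2 h, 1.68 at 4 h, 1.54 at 6 h, 1.54 at 8 h, 1.4 at 12 h, 1.39 at 18 h, 1.41, 1.38 and 1.42 at 24 h and 1.59, 1.6 and 1.51 at 48 h. The 4 h array was the highest and the 48 h arrays overlapped those of 6 and 8 h. KITLG was higher at 48 h than at 24 h by 0.163 ± 0.0306 (adjusted p = 0.00122), and its drop at 8 h relative to 4 h did not pass (-0.139 ± 0.053, adjusted p = 0.391). It was the member among 24 measured genes of secreted cytokines and growth factors.

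ADAM20, a metalloprotease of the ADAM family, was also higher at 48 h, with 0.586, 0.639 and 0.753, against 0.478, 0.44 and 0.455 at 24 h (difference 0.202 ± 0.0447, adjusted p = 0.00488), but its arrays varied widely (0.405 and 0.607 at 0.5 h). KLK6, a kallikrein protease, fell by 0.21 ± 0.0297 (adjusted p = 6.76e-05) and CTSV, a lysosomal cathepsin, by 0.141 ± 0.0273 (adjusted p = 0.00162), and so did TFPI2, a secreted protease inhibitor, which scored 0.322, 0.33 and 0.33 at 48 h, against 0.637, 0.567 and 0.508 at 24 h.

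The membrane proteins TM4SF19 and TMEM158 had differences of -0.309 ± 0.0314 (adjusted p = 1.36e-06) and -0.239 ± 0.0302 (adjusted p = 1.98e-05). TMEM158 had middle arrays of 1.41, 1.35 and 1.46 and early arrays of 1.06, 1.12, 1.07 and 1.25, and its 24 h arrays of 1.37, 1.44 and 1.34 overlapped the middle window. MICA, a stress ligand of natural killer cells, was lower by 0.095 ± 0.028 (adjusted p = 0.0312), a call lost without replicate 1 or 2 of 24 h or any 48 h array (0.0544 to 0.124), after quantile normalisation (0.0511) and with all probe sets (0.0635). PCDHB8 had the largest SD of all members, 0.112, and its middle arrays of 1.09, 1.17 and 1.38 overlapped the 24 h arrays of 1.1, 1.3 and 0.969, and the 8 h array was the highest of all.

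The 5 transcription members, ZFP82, EID1, MED8, HSBP1 and BMAL1, all missed the threshold between 48 and 24 h. BMAL1, the circadian activator, scored 0.925 and 1 at 0.5 h, 0.982 at 1 h, 1.17 at 2 h, 1.11, 1.11 and 1.13 at 4, 6 and 8 h and 0.992 at 12 h, so that its high ran between 2 and 8 h.

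Among the 10 pseudogenes and noncoding RNAs, 2 were lower and 1 was higher at 48 h, against 778 and 711 of the 6474 filtered genes. AOAH-IT1, a noncoding transcript, had the fifth largest value (0.156) with wide spread (SD 0.057), and scored 0.973, 0.853 and 0.903 at 48 h, against 0.828, 0.745 and 0.749 at 24 h (difference 0.136 ± 0.0354, adjusted p = 0.0153). C1orf220 fell by 0.159 ± 0.029 (adjusted p = 0.000944) and CEP170P1 by 0.111 ± 0.0336 (adjusted p = 0.037). The call was lost for AOAH-IT1 without replicate 2 or 3 of 24 h or 1 of 48 h (0.0623 to 0.0904), and for CEP170P1 without replicate 2 or 3 of 24 h or 1 or 3 of 48 h (0.0525 to 0.18) and with all probe sets (0.0722). The ribosomal protein pseudogenes RPL23AP53 and RPL23AP7, and SEPTIN7P2, UBE2MP1 and ANXA2P1, share sequence with their parent genes, and their scores may hold signal from them.

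Of the 20 members in no group 7 were lower and 1 was higher at 48 h, against 778 and 711 of the 6474 filtered genes. C5orf34 had the largest value among them, 0.151, with 1.08, 1.12, 1.12 and 1.13 at 4, 6, 8 and 12 h. It averaged 0.586 ± 0.00651 at 48 h and 0.952 ± 0.0155 at 24 h (difference -0.366 ± 0.026, adjusted p = 1.13e-08). LNP1 and SPA17, a sperm surface protein, fell by 0.137 ± 0.0319 and 0.135 ± 0.026 (adjusted p of 0.00695 and 0.00152). FAM200C, NTAN1, an amidase of protein turnover, PABIR3 and CCDC77 fell by between 0.103 and 0.141, and their calls were lost for FAM200C without replicate 1 or 3 of 24 h or 1 of 48 h (0.0572 to 0.0691), for NTAN1 without replicate 3 of 24 h (0.0527), for PABIR3 without replicate 3 of 24 h or 1 or 3 of 48 h (0.0618 to 0.119) and for CCDC77 without replicate 1 of 24 h or 2 of 48 h (0.0906 and 0.087). IFI44, an interferon-induced protein, was higher at 48 h by 0.137 ± 0.0358 (adjusted p = 0.0159). It was the member among 16 measured interferon-induced genes. Of these 11 were higher and 0 were lower at 48 h, against 6.19% and 6.68% of all 14675 genes. The call of IFI44 was lost without replicate 3 of 24 h or 2 or 3 of 48 h (0.0538 to 0.096) and after quantile normalisation (0.051).

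The 3 lists of early EGF response genes held no member. Of the immediate-early transcription factors 13 of 21 measured genes passed the filters. This was so for 12 of 17 feedback regulators of ERK and EGFR and for 5 of 11 EGF family ligands and ERBB receptors. The rest could not be members. Median rule values of those that passed were -0.241, -0.193 and -0.276, with 0, 1 and 0 positive values. Ribosome biogenesis (26 measured), RNA splicing and processing (24) and nuclear import, export and pore (21) also had 0 members. Their medians were -0.0187, -0.00207 and -0.00562, close to the -0.0178 of all genes that passed the filters. Since only 150 of 6474 genes were members, lists of this size could hold 0 at the overall share, and nothing is read from it.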

How the data were processed

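The authors computed the deposited SCAN scores per probe set with Single Channel Array Normalisation, which corrects each array alone for the base content of its probes, and left out arrays they held to be outliers. The software version and genome build are not given in the sources used here. Of 39937 probe sets 15426 had 1 gene symbol in the platform annotation, and all 150 members matched a current symbol. With time as a factor of 10 levels and 5 residual degrees of freedom, moderated linear models (limma 3.58.1, R 4.3.3) gave 48 h minus 24 h, 8 h minus 4 h and 2 h minus 1 h, with Benjamini-Hochberg adjustment over 14675 genes, and was tested on simulated data. Genes were named by rule value, by place at the border, by called contrast, by list and by role. The members, the role groups and the gene lists were chosen with earlier results of these data known. Alternatives were quantile normalisation, median centring, other filters, all probe sets, a trend of the spread, other forms of the rule, each array left out and the replicate number as a block. Precision is limited by the number of arrays.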

Additional observations from a re-analysis of the deposited data

How the results depend on the processing

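Leaving out single arrays gave 4 to 7 members higher (4 without replicate 3 of 24 h) and 48 to 56 lower at 48 h than at 24 h, and 626 to 867 of all genes higher and 759 to 939 lower. With all probe sets 1364 were higher in place of 909. Of 64 member calls 46 held under all 14 alternatives, 18 were lost under some and 0 reversed.

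Between 8 and 4 h all genes gave 6 higher and 1 lower. There were 1 higher after quantile normalisation, 1 after centring, 18 higher and 6 lower with a mean score of at least 0.5, 17 higher and 3 lower with a trend of the spread, 2 lower with all probe sets, and 1 to 11 higher and 1 to 5 lower without single arrays. Between 2 and 1 h all probe sets gave 48 higher and 119 lower in place of 28 and 66, and single arrays left 21 to 33 and 57 to 69. The member lower at 2 h numbered 0 after quantile normalisation, 0 with all probe sets and 0 to 1 without single arrays.

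With the replicate number as a block 1 gene was higher between 8 and 4 h, 9 were higher and 24 lower between 2 and 1 h, and 0 members were lower there, while at 48 h 7 members were higher and 56 lower, PCGF5 losing its call and TOMM40 gaining one (-0.0965, adjusted p = 0.0465). Arrays of 24 and 48 h with the same number deviated together by r of 0.0103, 0.0281 and 0.0297. Each correlated best with its own number, since the other pairs lay between -0.024 and -0.0034. All these r are small, and whether arrays of the same number share a batch cannot be told from them. The main models treated the arrays as unpaired.

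The choice of members depended on the rule. Of the 150, 29 were kept when the middle window was set against the mean of both sides, 96 to 149 without single arrays (lowest without 8 h and 1 h), and 94 with replicate 1 arrays alone, an alternative chosen after seeing the data in which all 150 still had positive values (at least 0.0299). From 101 to 138 were kept under the other forms. All 3 middle times had 1 array each, with replicate number 1, so that time and array cannot be told apart there.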
